A study of Mus musculus with 12 samples.

Results

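This report describes 1981 distal windows of open chromatin that kept a high and nearly equal accessibility when Prox1 was added to a hepatocyte reprogramming mix in mouse fibroblasts. They were chosen by their measured values among 176680 windows of an ATAC-seq table, an assay in which a transposase cuts DNA that is not packed in nucleosomes. A window was taken when its log2 mean normalized read count was at least 8 (256 reads) in both groups, when these values differed by at most 0.2 (a 1.15-fold change), and when it lay more than 1 kb from every transcript start of the GENCODE M21 annotation of mm10. Of all windows, 149147 were distal by this distance, 5913 of them were at or above the floor of 8 in both groups, and the members made up 33.5% of these. Over all windows, whatever their level or position, the difference was at most 0.2 in 17.0%. Both percentages follow from the rule itself and carry no test.

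The series held 12 libraries of day 2, 3 in each of 4 groups, and the table at hand gave the values of 2 groups. The cells of both were primary embryonic fibroblasts (MEFs), wild type, of the strain C57BL/6N, from E13.5 embryos, which per the study's methods came from the distal limbs of several embryos and were passaged before use. Both groups were grown on collagen, carried lentiviral rtTA and 4in1 (a vector named LV.4TF, whose factors are not named in the labels) and received doxycycline at 2 µg/mL, so the reprogramming factors were common to both and only the remaining vector differed. In 4in1_GFP_OE this vector was the inducible control tetO-GFP, and in 4in1_Prox1_OE it was tetO-FLAG-mmProx1. The question of the comparison was what Prox1 changes in chromatin early in reprogramming, and the members are the strong sites at which this measurement hardly moved. The table gives 1 mean per group and no value per library, so no spread between replicates can be given for any window, and the depth of the libraries is unknown. A culture mean cannot tell apart fewer cells with an open site from less opening per cell.

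The labels could be checked in part. Of the 20 fibroblast genes listed, 15 had a window at or above 8 within 1 kb of a start in 4in1_GFP_OE, and of 20 hepatocyte genes 8 did, while 9 had no window of any level within 1 kb of a start. The window over an exon of Prox1 at chr1:190160680-190160880 rose from 16.1 to 6847 mean normalized reads in the library group labelled with the Prox1 vector. Reads of the vector and of the gene itself cannot be told apart here, so the rise checks the label only.

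Distal open chromatin in mammals includes enhancers, which bind cell-type transcription factors, and insulator sites, which bind CTCF. CTCF is a zinc-finger protein that recognizes a long sequence, is present in nearly all cell types and, with the cohesin ring, sets the ends of chromatin loops. In fibroblasts many active enhancers bind AP-1, dimers of the Fos and Jun families, together with TEAD factors, the DNA-binding partners of the Hippo pathway. Windows dense in CpG dinucleotides are often unmethylated and open in many tissues. Prox1 is a homeodomain protein of the liver and of lymphatic endothelium.

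CTCF motifs are shown first because, as searched here with 1 mismatch allowed, CTCF was the most frequent of 26 motifs in the members, while without mismatch it was in fewer members (11.2%) than the exact AP-1 word (17.0%) or the E-box CAGCTG (19.7%). The search covered the 201 bases of each window on both strands with a CTCF consensus of 15 bases and at most 1 mismatch. The 5 lines that follow hold the matches without mismatch in the members of highest mean level that lay outside exons, with up to 15 flanking bases in the direction of the motif and the matched bases in capitals. They lay at chr15:101984360-101984560, chr5:142367651-142367851, chr7:113377935-113378135, chr1:135753009-135753209 and chr9:22328163-22328363 (mm10, all intergenic), and the match in the Btbd10 window lay at the edge of the window, where the sequence scanned ended.
near Gm36026, minus strand: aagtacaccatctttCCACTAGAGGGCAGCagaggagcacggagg
near Foxk1, minus strand: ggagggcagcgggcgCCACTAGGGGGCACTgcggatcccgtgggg
near Btbd10, plus strand: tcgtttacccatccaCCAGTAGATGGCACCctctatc
near Phlda3, minus strand: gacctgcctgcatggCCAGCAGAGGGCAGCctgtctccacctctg
near Gm6607, minus strand: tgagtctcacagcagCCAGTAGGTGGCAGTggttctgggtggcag

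Other members had no such site. The next lines give, on the plus strand of mm10, whole windows of other kinds, a CpG-rich window in an intron of Mnt and one between genes near Nr4a1, which were among the members of highest level, and a window near Krt78 with both forms of the AP-1 word TGAGTCA or TGACTCA in capitals. The last was picked after its values were seen.
Mnt intron, chr11:74832164-74832364: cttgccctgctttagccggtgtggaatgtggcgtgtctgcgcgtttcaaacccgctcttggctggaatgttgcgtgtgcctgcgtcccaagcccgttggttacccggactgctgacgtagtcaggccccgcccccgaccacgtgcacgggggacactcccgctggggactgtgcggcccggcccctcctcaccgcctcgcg
near Nr4a1, chr15:101246352-101246552: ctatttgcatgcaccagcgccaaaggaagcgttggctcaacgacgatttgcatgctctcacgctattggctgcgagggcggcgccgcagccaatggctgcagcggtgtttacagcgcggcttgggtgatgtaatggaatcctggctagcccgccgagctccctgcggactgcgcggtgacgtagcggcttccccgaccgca
near Krt78, chr15:101977444-101977644: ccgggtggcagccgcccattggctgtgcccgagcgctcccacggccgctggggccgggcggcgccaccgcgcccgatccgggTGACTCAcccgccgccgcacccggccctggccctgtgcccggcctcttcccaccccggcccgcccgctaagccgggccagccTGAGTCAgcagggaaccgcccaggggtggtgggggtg

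The levels of the members, on which they were selected, ran from 8.00 to 9.88 on the log2 scale in 4in1_GFP_OE, with a median of 8.34, and from 8.00 to 9.80 in 4in1_Prox1_OE, with a median of 8.28. In mean normalized reads the medians were 323 and 311. Most members therefore sat just above the floor, and 117 exceeded 9 in both groups. The difference, Prox1 minus GFP, had a median of -0.07, and 1432 members were lower with Prox1 while 549 were higher. That is 72.3% lower, and over all windows the share lower was also 72.3%.

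The members lay above the median difference over all windows, which was -0.42. The quartiles over all windows were -0.99 and 0.07, so the median of the members lay between them. A window of no difference in the deposited values thus lay above the median window. The comparison is relative to the authors' normalization, and where its zero should lie was not tested.

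**Figure D1:**
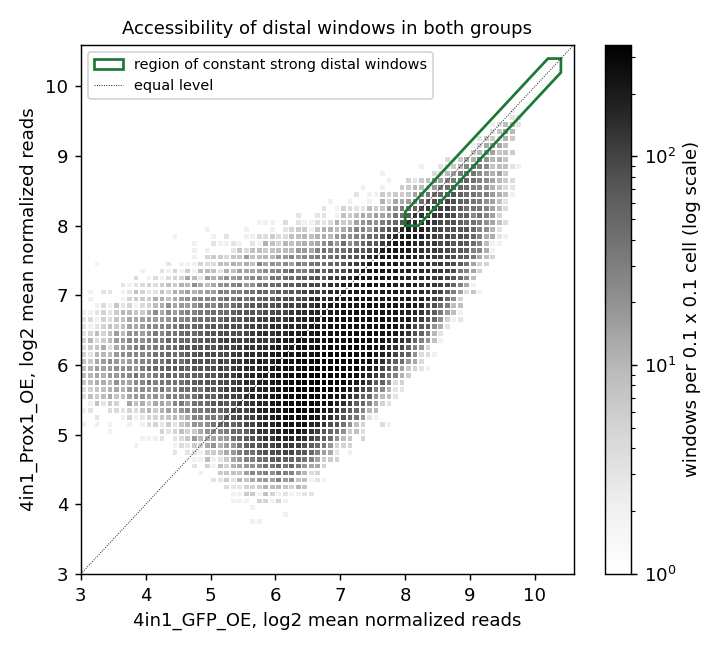
Distal windows by their level in 4in1_GFP_OE (x axis) and 4in1_Prox1_OE (y axis), both in log2 mean normalized reads, shaded by windows per cell on a log scale. The outlined region of the rule holds the 1981 members, above the bulk of windows, most of which lie under the dotted line of equal level.

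The edge of the rule cut a continuous range. Just inside the limit were a window in an intron of Hnf4a, the gene of a liver nuclear receptor, with a difference of -0.1997, and one near Ier5l with 0.1991. Just outside were a window near Arhgef18 with -0.2002 and one in an intron of Ext1, which makes heparan sulfate chains, with 0.2010. Windows on both sides of the edge thus had nearly equal differences.

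The members with the highest level were CpG-rich and carried neither CTCF nor AP-1 motifs. The window in an intron of Mnt, a repressor that competes with Myc for Max, had 943 mean normalized reads with GFP and 894 with Prox1, a log2 difference of -0.08. The window near Zfp395 (chr14:65343772-65343972) had 900 and 794 reads. The window 7717 bp from a start of Nr4a1, an immediate-early nuclear receptor, had 879 and 803.
Near Bbc3, which encodes the pro-apoptotic protein Puma, a window had 814 and 800 reads (chr7:16299696-16299896), and near Fos, an AP-1 subunit, one had 857 and 754 (chr12:85455263-85455463). These 5 held 13 to 23 CpG in 201 bases, and none had a CTCF match even at 2 mismatches. All were lower with Prox1, by up to 0.18 on the log2 scale.

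With chromosome 18 left out, the strongest members with a CTCF match without mismatch were somewhat lower in level. In an exon of Rasip1, a Ras-interacting protein of blood vessels, the window at chr7:45628825-45629025 had 651 reads with GFP and 579 with Prox1. The one near Foxk1, a forkhead factor, had 564 and 551. The one near Btbd10 had 498 and 503, and was the only 1 of these 6 that was higher with Prox1. Those near Gm36026, Phlda3 and Gm6607, differed by -0.15, -0.14 and -0.02 on the log2 scale.

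A CTCF match was present in 637 members, 32.2% (95% Wilson interval 30.1 to 34.2, here and below for counting error over windows only, since windows are not replicates). It was present in 16.1% (15.0 to 17.3) of the 3932 other distal windows above the floor in both groups, whose difference exceeded 0.2 and of which 3774 were lower and 158 higher with Prox1. Of the 9195 distal windows at or above 8 in 4in1_GFP_OE that were lower by at least 1 with Prox1, 0.805% had one. Over all windows the share was 6.50%. Members thus held the motif more often than other strong distal windows, by 16.03 percentage points (13.7 to 18.4). Exact matches were in 11.2% of members and 5.06% of the other strong windows. The consensus with its letters in reversed order was in 0 of 1981 members (upper limit 0.194%), 0.178% of the other strong windows and 0.0402% of all windows, but it holds a fixed CpG, which the consensus itself does not, and is therefore no matched control.

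AP-1 motifs had the opposite pattern. TGAGTCA or TGACTCA was present in 337 members, 17.0% (15.4 to 18.7), in 33.2% of the other strong distal windows, in 48.1% of those that were lower by at least 1, and in 23.0% of all windows. The difference between members and other strong windows was -16.2 points (-18.3 to -13.9). Both a CTCF and an AP-1 match were in 23 members (1.16%), in 1.32% of the other strong windows and in 0.287% of all windows.

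These contrasts depend on where zero lies. With the differences centred on the median of all windows before the limit was applied, 2459 windows were constant, 21.6% of them had a CTCF match, and they differed from the other strong windows by 0.239 points for CTCF and 0.527 points for AP-1. With totals made equal the differences were 0.327 and 0.0321 points. The contrast between constant and other strong windows therefore holds on the deposited scale and not on these others. The course of the motif shares along the difference, given next, does not use the limit, though the floor of 8 still uses the deposited scale.

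Along the difference, in bins chosen after the values were seen, the CTCF share among strong distal windows was 0% of 246 windows lower by 1 or more. It was 7.58% between -0.8 and -0.6 and 26.8% between -0.4 and -0.2. Its highest value, 34.8%, was between -0.2 and 0, and it was 25.3% between 0 and 0.2 and 7.20% between 0.2 and 0.4. So the motif was most common in members on the lower side of zero and less common on both flanks. The bins also differ in level, since a window lower by 1 had to reach 9 in 4in1_GFP_OE to stay above the floor in both groups. The AP-1 share went from 50.4% in the lowest bin to 16.5% between -0.2 and 0 and was 27.2% between 0.2 and 0.4. Seen from the motif, 50.1% of the strong distal windows with a CTCF match were constant, against 20.5% of those with AP-1. The share was 42.0% of those with at least 10 CpG and 33.5% of all strong distal windows. These shares, unlike the bins, use the limit of 0.2 and so its zero.

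**Figure D2:**
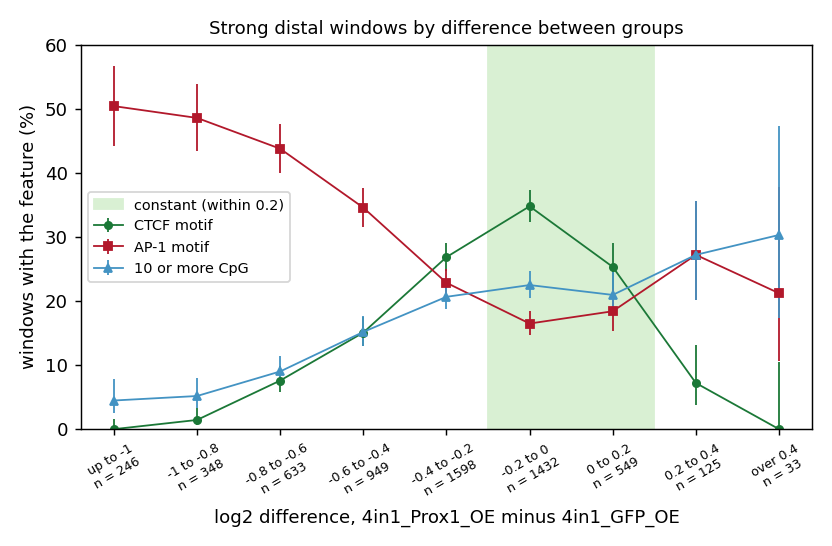
Share of strong distal windows (y axis, %) with a CTCF motif, an AP-1 motif or at least 10 CpG, by log2 difference of 4in1_Prox1_OE minus 4in1_GFP_OE (x axis), with 95% Wilson intervals. The CTCF share is highest at 34.8% in the shaded range of the members, where the AP-1 share is lowest at 16.5%.

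Of 26 motifs searched, 5 had intervals that did not overlap between members and other strong distal windows. CTCF was one. The GC box GGGGCGGGG, a site of Sp and Klf factors, was in 3.89% against 2.54%, and the consensus of NRF1, a factor of mitochondrial genes, was in 1.72% against 0.738%. Both of these are themselves CpG-containing words. Lower in the members were AP-1 and the TEAD word (ACATTCC or GCATTCC followed by A or T), in 8.99% against 13.2%, with 17.6% in the windows that were lower by at least 1. Over all windows the GC box was in 2.36%, NRF1 in 0.745% and TEAD in 10.5%.
The intervals of the other 21 overlapped. The muscle and neural E-box CAGCTG was in 19.7% of members and 21.2% of other strong windows, and 15.9% of all windows. Exact or near-exact words of liver factors were rare in every class, with HNF4 in 3 members (0.151%, against 0.303% of all windows), HNF1 in 0 (against 0.0232%) and the forkhead word in 41 (2.07%, against 3.63%). The consensus of Prox1 itself was in 4 members (0.202%, against 0.305%). No match says only that the searched letters were absent from the window.

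**Figure D3:**
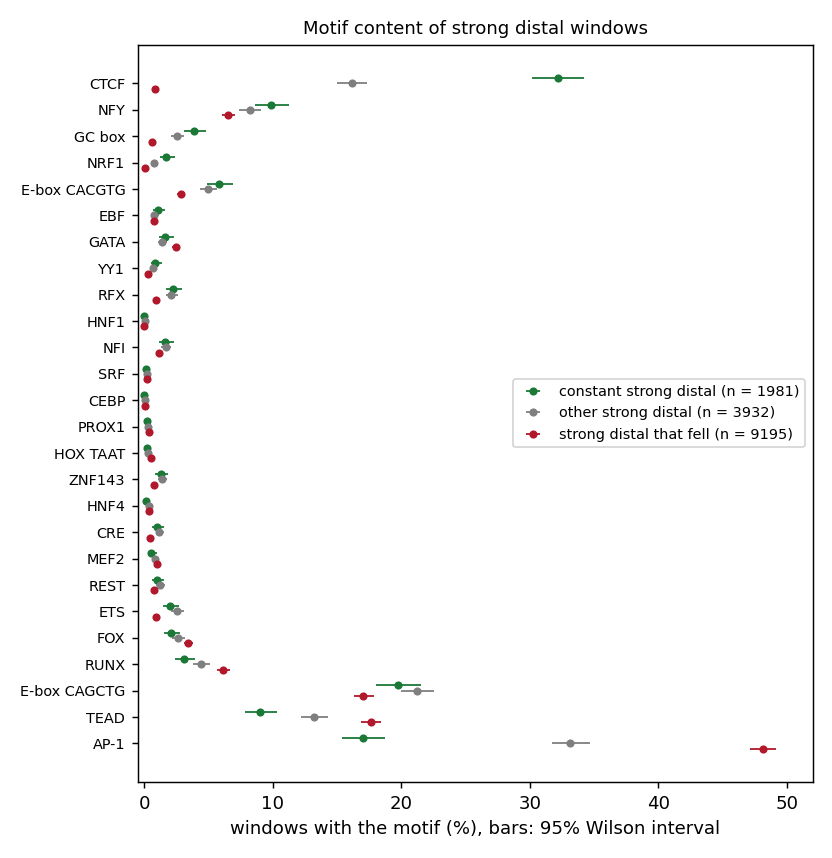
Share of windows with each of 26 motifs (x axis, %), with 95% Wilson intervals, in the members, the other strong distal windows and those lower by at least 1 with Prox1. CTCF stands out at 32.2% in the members, and AP-1 runs from 17.0% in the members to 48.1% in the windows that were lower.

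Words of 8 bases were ranked by their difference between these same members and other strong windows. They are thus no separate support for the motif contrast. AGGTGGCA, a part of the CTCF consensus, was in 7.02% of members and 3.05% of other strong windows, the widest gap in its direction, and in the members without a CTCF match it was in 2.53%. GTGACTCA, which holds the AP-1 word, was in 7.42% against 15.2%. Over all windows these words were in 1.97% and 8.02%.

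The CTCF match lay mostly near the middle of the window. Its centre was a median of 11 bp from the window centre in the members, and 73.2% were within 20 bp, against 15 bp and 60.3% in the other strong windows. The AP-1 match was a median of 23 bp away in members and 31 bp in the others. The CTCF matches fell on both strands, 328 on plus and 309 on minus.

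**Figure D4:**
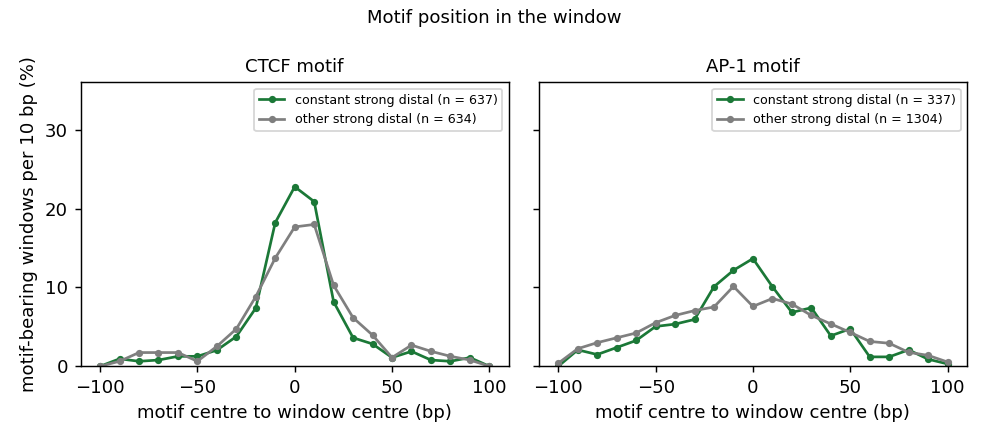
Position of the motif centre relative to the window centre (x axis, bp) as percent of the windows with that motif per 10 bp (y axis), for the members and the other strong distal windows. CTCF matches gather within 20 bp of the centre in both classes, 73.2% of them in the members and 60.3% in the others, and AP-1 matches spread wider (44.2% and 35.0%).

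The bases around the match were uneven too. In the 622 member windows with enough sequence on both sides, the first base after the consensus was A in 42.6%, and 10 bases before the match a C stood in 48.2%. Inside the consensus the second C was present in 99.8% and the G at position 7 in 99.7%, both of which the search itself favours. The positions with a free choice were split, with G in 57.4% and A in 42.4% at position 8.

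The members can be sorted into kinds. CTCF matches were in 637, and AP-1 without CTCF in 314 (15.9%, against 31.8% of other strong and 22.7% of all windows). At least 10 CpG without either motif, a threshold set after the values were seen, was found in 355 (17.9%). None of these features was found in 675 (34.1%). Whatever the motifs, at least 10 CpG were in 22.1% of members, 15.4% of other strong and 9.19% of all windows. With CTCF searched at up to 2 mismatches, windows with none of these features were 23.8% of members, 33.4% of other strong and 56.9% of all windows. Neither CTCF nor AP-1 was in 51.99% of members, 52.03% of other strong windows and 70.8% of all windows. The CpG-rich kind had the highest level, with a median of 8.72 in 4in1_GFP_OE against 8.29 for the CTCF kind, 8.34 for AP-1 and 8.30 for the rest. It was also the kind most often centred in an exon, 23.1% against 7.22%, 4.78% and 5.63%.
Differences were small in every kind, as the rule requires, with medians from -0.09 in the CTCF kind to -0.06 in the kind without features. Of the last kind, which by definition had no closer match, 30.2% held a CTCF match at 2 mismatches. With closer matches included, this looser search was met by 47.2% of members, 27.1% of other strong and 13.3% of all windows. The 30.2% has another base than these shares.

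Motif content changed with level. Members with a level of 8 to 8.25 (mean of both groups) had a CTCF match in 39.5%, those of 8.5 to 8.75 in 28.9%, those of 8.75 to 9 in 13.3%, and the 63 members of 9.25 or more in 4.76%. Windows with at least 10 CpG went the other way, from 9.56% to 90.5% in members and from 9.89% to 73.0% in other strong windows. At the same level the other strong windows had CTCF in 30.2%, 11.6%, 8.10% and 6.31%. The intervals of members and others did not overlap in the first 3 bands but did from 8.75 on, where the bands held 150 members or fewer. Whether the gap itself differed between bands was not tested. For AP-1 the intervals did not overlap from 8.25 to 9.25, with 17.6% against 39.6% at 8.5 to 8.75. They overlapped at 8 to 8.25, the band with 816 members, with 16.3% against 17.3%, and at 9.25 or more, with 7.94% against 21.6%.

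Distal windows with a mean level of both groups below 8, none of them members, were read in the same way. Some were at or above 8 in 4in1_GFP_OE, so these classes share windows with those lower by at least 1 described above. Among distal windows with a mean level of 7 to 8, a CTCF match was in 31.6% of the 6658 that differed by at most 0.2 and in 9.99% of the 30482 that differed by more. At 6 to 7 it was in 9.91% against 3.75%, and at 5 to 6 in 1.71% against 1.26%. The gap was thus present in windows of lower mean level and small in the lowest band. These shares rest on the same zero and the same libraries as the members.

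The median distance of members from a start was 7644 bp, with 244 (12.3%) within 2 kb and 98 (4.95%) beyond 50 kb. In the other strong windows 12.4% were within 2 kb and 6.36% beyond 50 kb. The median distance was 8536 bp there and 13106 bp in those lower by at least 1. By their centres 47.6% (45.4 to 49.8) were intergenic, 43.3% intronic and 9.14% exonic, in the other strong windows these shares were 45.0%, 48.2% and 6.77%, and over all windows, start sites included, 40.7%, 49.6% and 9.67%. GC content had a median of 54.2%, beside 53.7% in other strong windows, 47.8% in those that were lower and 69.2% in the constant strong windows at start sites. At least 10 CpG were found in 22.1% of members, 15.4% of other strong windows and 92.1% of the constant windows at start sites, where CTCF was in 4.23%. The centre base was repeat-masked in 7.12% of members, 5.70% of other strong windows and 10.9% of all windows.

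They were spread over the genome. Members made up 28.7% to 37.8% of the strong distal windows of an autosome, and on 19 of 19 autosomes the CTCF share was higher in members than in the others and the AP-1 share lower. The CTCF share of members ran from 21.3% on chromosome 13 to 44.0% on chromosome 5. The X chromosome held 5. Consecutive members were a median of 413726 bp apart, and 74 of 1961 pairs were within 10 kb.
By nearest protein-coding start, the members belonged to 1740 genes, 1535 of which had 1 member. The 3 genes with at least 4 were read after this count was seen. Zfp184, a zinc-finger gene, had 5 members within chr13:21907174-21935612, none with CTCF or AP-1, and none of its 12 distal windows changed by 1 or more. Sept9, a septin of the cytoskeleton, and Veph1 had 4 each, and of the distal windows 6 of 46 around Sept9 and 12 of 43 around Veph1 were lower by at least 1, while 1 and 6 were higher. Over all windows 24.4% were lower and 8.33% higher by at least 1.

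Distal windows next to members had median differences of -0.29 at up to 1 kb, -0.44 at 2 to 5 kb and -0.37 at 50 to 100 kb. The median was -0.42 for all windows. Of these neighbours 14.5% to 20.7% were within 0.2, around the 17.0% of all windows. The values for all windows include those within 1 kb of a start, while the neighbours were distal only. At up to 1 kb this share was 14.5% beside members and 23.5% beside other strong windows. Beside the other strong windows the medians were -0.36, -0.58 and -0.45, and beside those lower by at least 1 they were -0.68, -0.75 and -0.55. Of 1679 members with a distal neighbour within 10 kb, 598 (35.6%) had one that was lower by at least 1 and 227 had one that was higher by at least 1, while 55 had both. These counts grow with the number of neighbours of a member. Counted as single windows, 11.5% of the neighbours within 1 kb and 14.1% of those at 1 to 2 kb were lower by at least 1, against 19.2% and 28.9% beside other strong windows and 24.4% of all windows. At 2 to 5 kb the share beside members was 22.6%, against 29.5% beside other strong windows. Neighbours higher by at least 1 made up 7.63% within 1 kb and 5.596% at 1 to 2 kb beside members, 3.92% and 2.73% beside other strong windows, and 8.33% of all windows.

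**Figure D5:**
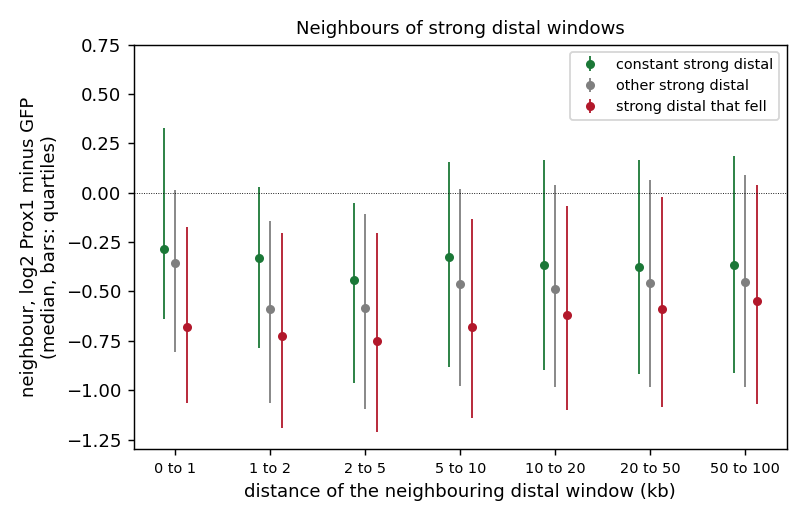
Log2 difference, Prox1 minus GFP, of distal windows near a member, near another strong distal window or near one lower by at least 1 (y axis, median with quartiles), by distance in kb (x axis). Near the members medians run from -0.29 to -0.44 and the quartile ranges of the 3 classes overlap at every distance.

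Examples beside CTCF members, picked after their values were seen for the most extreme neighbour within 5 kb with at least 100 reads in 4in1_GFP_OE, show the range. Near Batf3, an AP-1 family gene, the member at chr1:191126040-191126240 had 371 reads with GFP and 351 with Prox1. An AP-1 window 2189 bp away had 277 and 62.9, a difference of -2.14. Near Slc30a8, a zinc transporter gene, a member had 298 and 296 reads, and a window 4174 bp away without AP-1 had 109 and 26.5, a difference of -2.05. In an intron of M1ap the member at chr6:82971080-82971280 had 305 and 314 reads, and an AP-1 window 1546 bp away had 127 and 33.4.
Near Taok1, a kinase gene, a member had 327 and 305 reads, and a window 746 bp away with neither motif had 261 and 69.8. In the other direction, an AP-1 window 4322 bp from a member in an intron of Mthfsd (337 and 299 reads) had 144 and 236 reads, a window 4683 bp from the Foxk1 member described above had 135 and 256 reads, and one 2409 bp from a member in an intron of Podxl, which encodes the cell-surface protein podocalyxin, had 118 and 196. Sites of equal and of unequal level thus lay within a few kb of each other.

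Gene lists drawn up with earlier results of these data known gave few members each. Of 32 loci known for boundaries or imprinting, 3 had members, 4 windows of the 8 strong distal ones there. In an intron of the imprinted gene Peg3 the window at chr7:6728555-6728755 had 490 reads with GFP and 442 with Prox1, and in an intron of the Eph receptor gene Epha4 one had 332 and 302. The members near the imprinted gene Dlk1 had 274 and 269 reads and 258 and 272. None of these 4 held a CTCF match at 1 mismatch, and 1 of the Dlk1 windows had one at 2.
Of the 10 strong distal windows of fibroblast genes, 1 was a member, in an intron of the collagen gene Col3a1 with 270 and 256 reads. Of 5 at hepatocyte genes, 2 were members, in an intron of Hnf4a (329 and 286 reads) and near Apob, the main protein of lipoproteins (289 and 278).

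Among genes of other fates, 4 of 8 strong distal windows were members and 3 of these had a CTCF match. Near Neurog2, a driver of neurons, the exonic window at chr3:127634184-127634384 had 364 and 321 reads and a match, and a window at chr3:127625342-127625542 had 376 and 412 without one. Near Gata5, a factor of heart and endoderm, a window with a match of 0 mismatches had 305 and 271 reads. One 96048 bp from the start of Ebf1, a B-cell and adipocyte factor, had 267 and 265 and also an exact match. Of the CTCF and cohesin genes 1 had a member, near the cohesin subunit gene Smc3, with 319 and 353 reads. Of all distal windows of the lists, whatever their level, 32.7% were lower by at least 1 at fibroblast genes, 30.1% at genes of other fates, 26.3% at CTCF and cohesin genes, 20.2% at boundary loci and 15.2% at hepatocyte genes, beside 24.4% of all windows. These counts of 1 to 4 members are too few to set one list against another, and beside them stands the 33.5% of all strong distal windows that were members.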

How the data were processed

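The deposited table gives log2 values. For each 201-base window the authors wrote the log2 of the mean normalized read count of each group over 3 libraries, from DiffBind. Per the submitters' notes and the study's methods, reads were checked with FastQC (0.11.8), trimmed with Trimmomatic (0.38), aligned to mm10 with Bowtie2 (2.3.4.3), filtered with SAMtools (1.10), Picard (2.18.16) and bedtools (2.27.1), and compared with DiffBind (3.4.11). The methods name MACS2 (2.1.2) as peak caller and another statement of the study names Genrich. For DiffBind the methods refer to the vignette of that version, which was not at hand, and state no normalization setting. The authors' fold changes, p-values and the lists of called regions were not used, and the groups without 4in1 were not analysed here.

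Members were found by rule with Python (3.11.15), pandas (2.3.3) and numpy (2.4.6). Members, gene lists and motifs were chosen with earlier results of these data known, which had shown CTCF and AP-1 windows to move differently, so these shares are descriptions and no test was run. Start sites, exons and introns came from GENCODE M21, comprehensive set, and sequence from the RefSeq copy of GRCm38.p6. Each window was scanned on both strands for 26 consensus sequences (numba 0.67.0), the best and then leftmost match giving the position. The scan was tested on simulated data with planted motifs and found all 72000. Spelled out, the words were AP-1 (TGAGTCA or TGACTCA), TEAD (ACATTCC or GCATTCC before A or T), RUNX (TGTGGTT before A or T), ETS (CCGGAA before a purine and a pyrimidine), the E-boxes (CAGCTG and, apart from it, CACGTG), CRE (TGACGTCA), the GC box (GGGGCGGGG), NFY (CCAAT before C or G and a purine), FOX (TATTTAC or TGTTTAC before A or T), HNF4 (CAAAGTCCA), GATA (GATAA after A or T and before C or G and a purine), C/EBP (TTGCGCAA before a pyrimidine) and the homeodomain word (TAATTA after a pyrimidine and before a purine). CTCF, NFI, YY1, ZNF143, RFX, HNF1 and PROX1 were searched with 1 mismatch, REST with 3, and NRF1, EBF, SRF and MEF2 with none. GC box and NRF1 matches can overlap each other. Shares have Wilson intervals and differences Newcombe intervals (95%).

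Windows named are the 5 members of highest mean level, the 6 highest with an exact CTCF match (chromosome 18 left out), the 5 highest without one at 2 mismatches (the same 5), those at the edge of the rule, and members at listed genes. The AP-1 example, the bins of difference and level, the CpG threshold, the weaker windows, neighbours, genes with several members and pair orientations were added after values were seen.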

Additional observations from a re-analysis of the deposited data

How the results depend on the processing

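No paired analysis was possible because the processed values used here are means of the groups, and for the same reason no library could be left out. The main values were 1981 members, 32.2% with CTCF, 17.0% with AP-1, 47.6% intergenic, and differences from other strong distal windows of 16.03 and -16.2 points. Setting zero elsewhere removed both differences. Centred on the median of all windows, 21.6% had CTCF (difference 0.239) and 28.1% AP-1 (difference 0.527, reversed), and with equal totals 21.7% (0.327) and 27.8% (0.0321, reversed). A floor of 7.5 gave 4991 members, 34.9% with CTCF and 45.1% intergenic. A floor of 8.5 gave 489 members, 17.6% with CTCF (difference 5.67), 14.3% with AP-1 (-20.8) and 51.9% intergenic. A limit of 0.1 gave 1002 members with differences of 11.9 and -13.2, and a limit of 0.3 gave differences of 18.7 and -18.3. Beyond 2 kb from a start 50.1% were intergenic, and with the start sites of the GENCODE basic set, chosen after seeing the data, 43.5% were. The CTCF share was 11.2% without mismatch (difference 6.09) and 47.2% with up to 2 (20.1), and the AP-1 share was 53.0% with 1 mismatch. Start sites of protein-coding genes alone and autosomes alone moved no value beyond its interval. For the motif and genomic shares the yardstick was the 95% counting interval. Depth could not be assessed from group means.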

Other observations

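CTCF matches have a direction, and loop ends are known to face each other often. Consecutive members with a match on the same chromosome formed 617 pairs, of which 165 had both matches on the plus strand, 145 both on the minus strand, 154 facing each other and 153 facing away. Among the 177 pairs at most 500 kb apart the counts were 33, 53, 46 and 45. The facing and the opposed orientation were thus about as common in members taken in a row, where other CTCF windows that are not members can lie between them.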
